A study of Arabidopsis thaliana with 12 samples.

Results

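Ceria germinants are Arabidopsis thaliana seedlings of the Columbia ecotype (Col-0) that were raised from seed for 12 days with particles of cerium dioxide (CeO2, ceria) at 500 mg per L. Their control germinants had sterilised purified water in place of the particles. The 3 arrays labelled CeO2 and the 3 labelled Millipore Water were taken by label from the 12 arrays of the series. The other 6 arrays hold titania (TiO2) germinants, also at 500 mg per L, and their 0.1 mM KCl control. All germinants shared the ecotype, the age and the dish, with 50 seeds on a filter disc wetted with 2 mL of liquid. RNA came from whole seedlings, so each value averages root and shoot. The labels do not say in which liquid the ceria was suspended. They call the CeO2 and water arrays only replicates, so the spread between these samples may be technical. The p-values use a spread pooled over all 12 arrays, of which the TiO2 and KCl ones are labelled biological replicates.

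Each array gave robust multi-array average (RMA) values on the log2 scale, on which 1 unit is a doubling, for 22746 probe sets of an Affymetrix Arabidopsis array. A probe set is the group of array oligonucleotides that reads 1 transcript. Array medians lay between 5.88 and 5.91 in CeO2 and between 5.89 and 5.92 in water. The lowest values were 2.3 to 2.39 in CeO2 and 2.35 to 2.42 in water, so a group mean below 4 sits near the floor, and a change to or from it is a lower bound. Correlations over probe sets were 0.9962 to 0.9969 among CeO2 arrays, 0.9928 to 0.9946 between a CeO2 and a water array, and 0.9963 to 0.9971 among water arrays.

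The comparison asks which transcripts differ in germinants grown with ceria. Of 8 measured root hair genes 7 rose in CeO2, among them XTH26 and EXPA18. Class III peroxidases went both ways, with 9 rises and 6 falls among 55 measured, as did extensins, with 6 rises and 2 falls among 15. The oxidase gene AT1G26380 and the lectin gene AT3G16530 had the largest falls. Of 15 measured chitinase genes 5 fell, and of 9 measured immune signalling genes 4 fell, beside 0.951% lower over all genes. The immune falls include PUB23 and PUB24, which dampen the response. Of 22 measured genes known to accumulate in low oxygen, 7 fell and 15 did not pass the threshold. The peroxidase, extensin, chitinase and low-oxygen lists were all written after values had been seen. None passed the threshold among the few measured genes of photosynthesis (6 of 40 listed), antioxidant enzymes (7 of 32), glutathione S-transferases (11 of 35) and flavonoid and anthocyanin synthesis (7 of 20). Over all genes 1.11% were higher and 0.951% lower, so no call is the usual outcome for so few genes.

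In all, 550 of 22746 probe sets (2.42%) passed an adjusted p of 0.05 in limma, 286 higher and 264 lower in CeO2. The change was at least 2-fold for 63 of the rises and 79 of the falls, and at least 4-fold for 3 rises and 18 falls. The median size was 0.66 log2 for a called rise and −0.72 for a called fall, beside a median absolute change of 0.08 over all probe sets. Of the 550, 275 were paired with 1 gene, 12 with several and 263 with none. Only 44 of the 275 genes had a symbol, and the other 231 were known by locus number. Counted as genes, 148 of 13355 were higher (1.11%) and 127 were lower (0.951%). These shares are the background for the counts per gene group. In 46 of the called falls the CeO2 mean, and in 26 of the called rises the water mean, was below 4. The CeO2 and water arrays did not overlap in any of the 550 called probe sets, nor in 3821 of all 22746. A lack of overlap, given below for single genes, therefore adds nothing to a call.

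**Figure D1:**
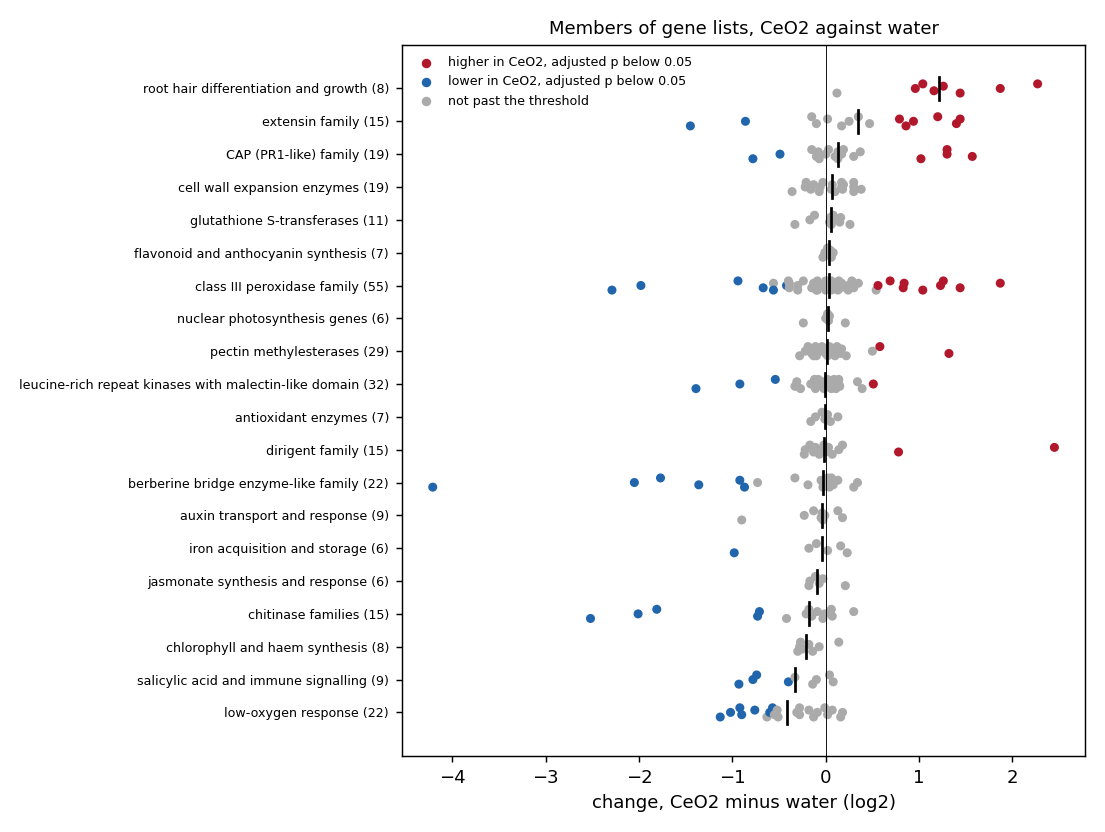
Change of each measured member, CeO2 minus water (log2, horizontal axis), for gene lists with 5 or more measured members (number in brackets, lists down the page by median). Points are genes, red for a rise and blue for a fall at adjusted p below 0.05, and black bars are medians; 7 of the 8 root hair genes are red, and the low-oxygen list has the lowest median, −0.41.

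A root hair is the outgrowth of a single epidermal cell that enlarges the root's absorbing surface. Its tip extends while enzymes loosen the wall, and extensins and peroxidases then crosslink it. Of 39 root hair genes listed, the annotation paired 8 with a probe set of their own, and only these count as measured. Of these 8, 7 rose, beside 1.11% of all genes, and none fell, with a median change of 1.21 log2. The list was chosen with earlier results of these data known, so its count is a description. The median over all genes was −0.01.

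XTH26, an enzyme that cuts and rejoins xyloglucan in the root hair wall, was at 7.86, 7.75 and 7.84 log2 in CeO2, against 5.3, 5.86 and 5.48 in water. The groups did not overlap, and the rise was 2.27 ± 0.12 log2 (SE), or 4.82-fold (limma adjusted p = 9.98e-09). The peroxidase gene AT1G34510 (PRX8) was at 7.72, 7.54 and 7.71 in CeO2, against 5.7, 6.0 and 5.65 in water, a rise of 1.87 ± 0.13 log2. All 3 CeO2 arrays again lay above all 3 water arrays.

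Both root hair expansins, which loosen the wall without cutting it, rose. EXPA18 was at 8.63, 8.57 and 9.04 log2 in CeO2, against 7.14, 7.41 and 7.37 in water, and EXPA7 at 8.54, 8.42 and 8.85 in CeO2, against 7.54, 7.78 and 7.61 in water. The rises were 1.44 ± 0.12 and 0.96 ± 0.13 log2, with no overlap of the groups in either gene. CeO2 replicate 3 was the highest array for both.

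The endoglucanase-type gene GH9C1 averaged 9.29 ± 0.12 log2 in CeO2 and 8.12 ± 0.2 in water (SD, n = 3 each), a rise of 1.16 ± 0.13. The root hair peroxidase genes AT4G26010 (PRX44) and AT1G30870 (PRX7) rose by 1.26 ± 0.12 and 1.04 ± 0.09 log2. The remaining member, SCN1, which keeps hair outgrowth to a single site, was at 9.59, 9.5 and 9.35 in CeO2 and 9.4, 9.35 and 9.34 in water. Its groups overlapped, and its change of 0.12 ± 0.09 did not pass the threshold (adjusted p = 0.811).

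In whole seedlings, more cells of a type and more RNA per cell cannot be told apart. The annotation used here paired none of the 11 listed root markers with a probe set of its own, so the share of root in the RNA was not tested by them. The 3 shoot markers measured averaged 11.84, 11.71 and 11.77 log2 in CeO2 and 11.78, 11.75 and 11.67 in water, and none passed the threshold. Mean levels of the 8 root hair genes were 9.27, 9.16 and 9.36 in CeO2, against 7.88, 8.16 and 7.96 in water.

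**Figure D2:**
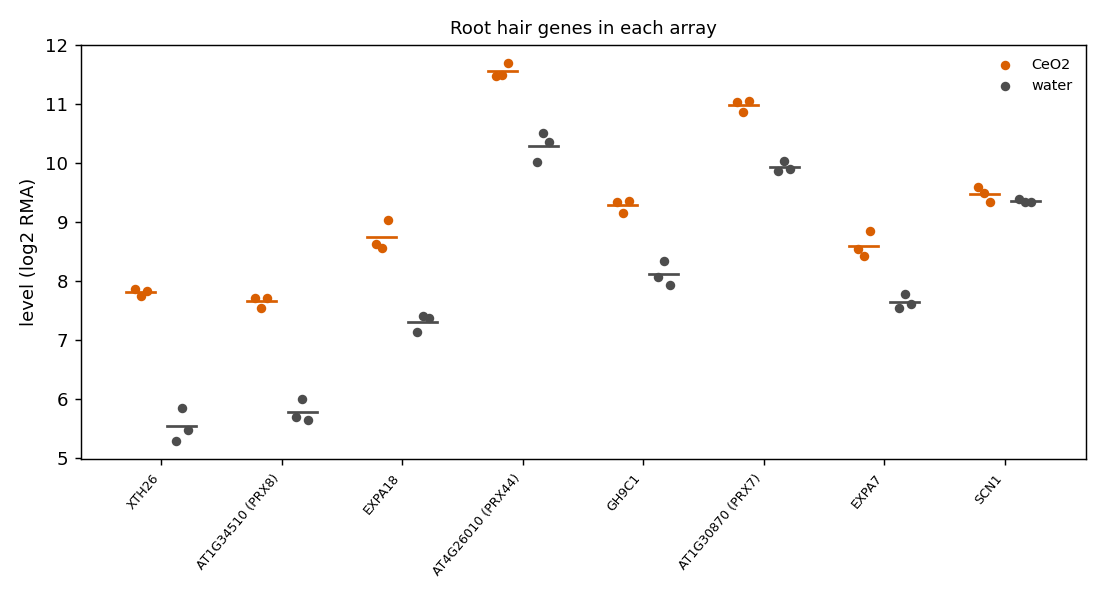
Level of each of the 8 measured root hair genes in each array (log2 RMA, vertical axis), with CeO2 arrays in orange left of water arrays in grey and bars at the group means of 3 arrays. In 7 genes all orange points lie above all grey points; in SCN1 they overlap.

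Other wall genes also rose, but general wall-loosening genes did not pass the threshold. None of 19 measured expansins, xyloglucan enzymes and related genes outside the root hair list was called, and their changes ran from −0.36 to 0.38 log2. With 1.11% of all genes higher and 0.951% lower, no call among 19 is the usual outcome. EXPB3 at 0.38 (adjusted p = 0.0626) and EXLA2 at 0.30 (adjusted p = 0.0622) came closest to the threshold on the higher side.

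Extensins are rod-like glycoproteins that are crosslinked into a wall network. Of 15 measured extensin genes 6 rose and 2 fell, with a median of 0.35. AT5G19800 was at 7.21, 7.37 and 7.85 log2 in CeO2, against 6.08, 6.24 and 5.79 in water, a rise of 1.44 ± 0.14, and the groups did not overlap. AT5G06630, AT4G08410 and HRGP1 rose by 1.4, 1.2 and 0.94, but their probe sets hold probes that match other genes, so the gene is uncertain. AT3G28550 rose by 0.86 and AT5G26080 by 0.79.

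The 2 extensin genes that fell are neighbours by locus number. AT1G26250 was at 5.46, 5.58 and 5.82 log2 in CeO2, against 6.8, 7.18 and 7.23 in water, a change of −1.45 ± 0.15 with no overlap. AT1G26240 fell by 0.86 ± 0.14. The family thus moved in both directions in the same arrays.

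Pectin methylesterases remove methyl groups from wall pectin and so change how it gels. Only AT5G04960 and AT3G43270 rose among 29 measured, and the family's median was 0.01. AT5G04960 was at 9.26, 9.38 and 9.55 log2 in CeO2, against 8.04, 8.16 and 8.04 in water, a rise of 1.32 ± 0.10 with no overlap. The polygalacturonase-type gene AT1G65570 and the pectate lyase-type gene AT1G11920, pectin-cutting enzymes picked out after their values were seen, rose by 1.0 ± 0.15 and 0.71 ± 0.08. CSLC12, a synthase of the xyloglucan backbone picked in the same way, rose by 0.48 ± 0.10.

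Dirigent proteins steer the coupling of phenolic radicals in lignan and lignin formation. AT4G11190, the largest rise of all genes, was at 8.28, 7.6 and 8.07 log2 in CeO2, against 5.44, 5.57 and 5.57 in water. All CeO2 arrays lay above all water arrays, and the rise was 2.45 ± 0.18, or 5.47-fold (adjusted p = 2.22e-07). AT4G11210, of the same locus group, rose by 0.78, and the other 13 of 15 measured dirigent genes did not pass the threshold.

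CAP proteins, small secreted proteins related to the pathogenesis marker PR1, also divided. Of 19 measured, 4 rose and 2 fell. AT4G33720 was at 6.92, 6.11 and 6.36 log2 in CeO2, against 4.54, 5.15 and 4.99 in water, a rise of 1.57 ± 0.22 with no overlap. AT4G33730, its neighbour by locus number, rose by 1.3 ± 0.12, AT4G30320 by 1.3 ± 0.11 and AT4G25790 by 1.02 ± 0.15. AT4G31470 fell by 0.78 ± 0.14 and AT4G07820 fell by 0.49 ± 0.11; the call of AT4G07820 was lost without any 1 of CeO2 replicates 1 and 3 and water replicates 1 and 3.

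Class III peroxidases are secreted haem enzymes that either crosslink the wall or make reactive oxygen that loosens it. With 73 genes listed and 55 measured, this was the largest list, and 9 rose, 6 fell and 40 did not pass the threshold, around a median of 0.03. Besides the 3 in the root hair list, AT2G39040 (PRX24), AT3G49960 (PRX35), AT5G47000 (PRX65), AT5G19890 (PRX59), AT5G17820 (PRX57) and AT2G37130 (PRX21) rose, by 0.56 to 1.44 log2. PRX35 was at 11.11, 11.07 and 11.33 in CeO2, against 9.86, 10.1 and 9.87 in water, with no overlap.

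The largest changes in the family were falls. AT1G14550 (PRX5) was at 4.54, 4.66 and 4.47 log2 in CeO2, against 6.87, 6.92 and 6.75 in water, 4.89-fold lower (−2.29 ± 0.08, adjusted p = 5.53e-11). AT5G39580 (PRX62) was at 7.95, 7.46 and 7.72 in CeO2, against 9.53, 9.68 and 9.86 in water, 3.95-fold lower. Neither gene's groups overlapped. AT5G64120 (PRX71), which is known to be induced by pathogens and by wall damage, fell by 0.94 ± 0.16. AT5G19880 (PRX58), AT3G01190 (PRX27) and AT2G18980 (PRX16) fell less, with changes of −0.67, −0.56 and −0.42.

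PRX58 and PRX59 carry adjoining locus numbers and moved in opposite directions. PRX59 was at 8.58, 7.99 and 8.24 log2 in CeO2, against 7.2, 7.37 and 7.73 in water, a rise of 0.83 ± 0.15. PRX58 was at 3.16, 3.41 and 3.34 in CeO2, against 4.17, 4.05 and 3.7 in water, near the floor in both groups. Neither pair of groups overlapped, and the closest values were the CeO2 array at 7.99 and the water array at 7.73 for PRX59.

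**Figure D3:**
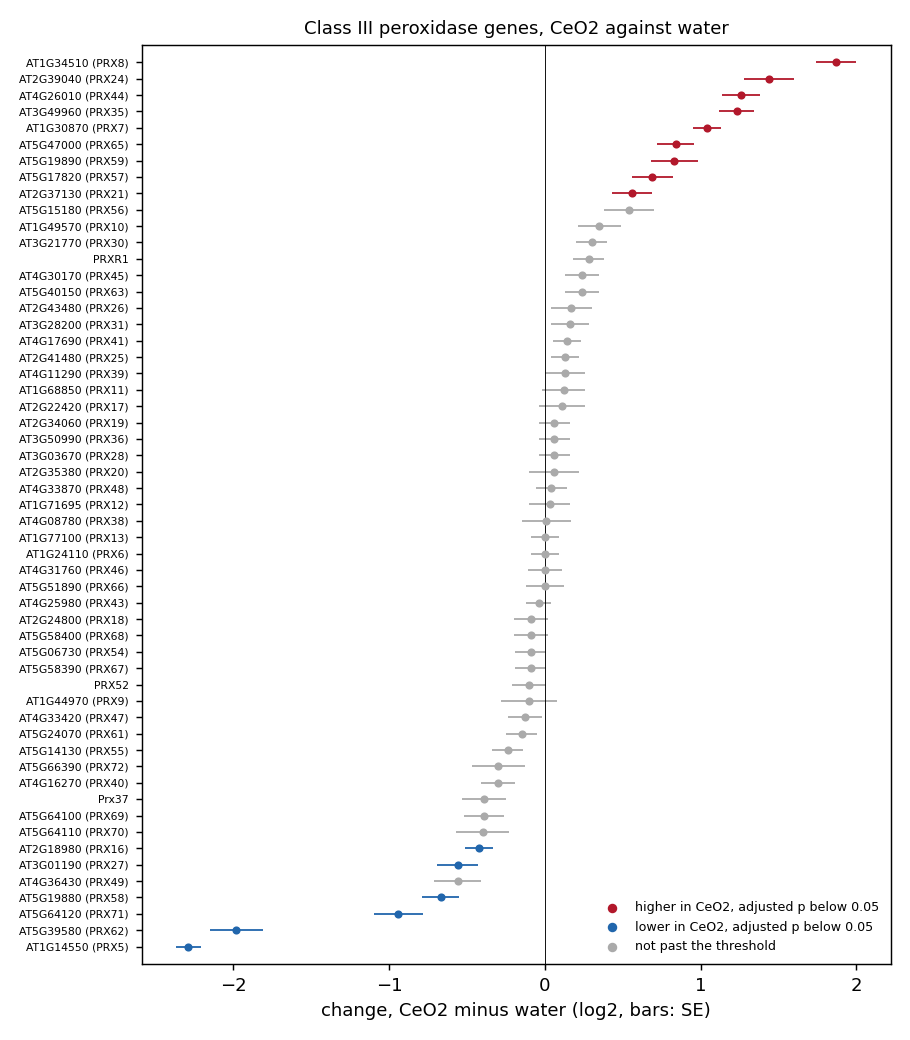
Change of each of the 55 measured class III peroxidase genes, CeO2 minus water (log2, horizontal axis; bars are SE from limma), with genes down the page from the largest rise to the largest fall. Red marks the 9 rises and blue the 6 falls past the threshold; the falls of AT5G39580 (PRX62) and AT1G14550 (PRX5) stand apart from the others.

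Plants meet pathogens with a layered response in which receptors at the cell surface sense microbial molecules, transcription factors and ubiquitin ligases tune the signal, and secreted chitinases, lectins and indole compounds act on the invader. Berberine bridge enzyme-like proteins are secreted oxidases, and several of them oxidise oligosaccharides released from the wall or indole compounds. Of 22 measured, 6 fell and none rose, beside 0.951% lower over all genes. This list was written after values had been seen, so its count is a description. The family's median was −0.03, and 14 of the 22 had CeO2 means near the floor, below 4.

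AT1G26380 (FOX1), which acts in the synthesis of an indole cyanogenic compound made against bacteria, was at 3.86, 3.93 and 3.69 log2 in CeO2, against 8.09, 8.14 and 7.91 in water. This was the largest fall among all genes, −4.21 ± 0.10 or 18.6-fold (adjusted p = 4.76e-13), and the groups lay far apart. Its CeO2 mean, 3.83, sat near the floor, so the fall is a lower bound. Of the next 4 loci by number that belong to the family, AT1G26390, AT1G26410 and AT1G26420 fell, with changes of −0.92, −1.36 and −2.05 log2. AT1G26400, within the same run, was below 4 in all 6 arrays and was not called (−0.19, adjusted p = 0.522). AT1G30700 fell by 1.77 ± 0.23 and AT4G20860 fell by 0.87 ± 0.20.

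CYP71B6, an enzyme of indole carboxylic acid synthesis, fell by 1.22 ± 0.08. It was at 8.29, 8.19 and 8.2 log2 in CeO2, against 9.43, 9.49 and 9.42 in water, with no overlap. The indole list had 4 measured members, 2 of which fell; UGT74B1 at −0.36 (adjusted p = 0.126) and the tryptophan synthesis gene IGPS at −0.41 (adjusted p = 0.0541) did not pass. This indole list and the oxidase list share AT1G26380.

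Chitinases break the chitin of fungal walls. Of 15 measured, 5 fell and none rose, with a median of −0.18. AT2G43590 was at 7.99, 7.39 and 7.65 log2 in CeO2, against 10.17, 10.2 and 10.22 in water, 5.73-fold lower. AT2G43570 (CHI), from the same run of loci, was at 5.39, 5.23 and 5.48 in CeO2, against 7.32, 7.34 and 7.47 in water, 4.02-fold lower. No CeO2 array reached a water array in either gene. AT2G43580, between them, AT1G02360 and ChiC fell as well, with changes of −0.71, −1.81 and −0.73. List means were 6.36, 6.26 and 6.28 in CeO2, against 6.85, 6.84 and 6.9 in water.

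The lectin gene AT3G16530, known to be induced by chitin fragments, was at 5.81, 5.46 and 5.7 log2 in CeO2, against 9.71, 9.73 and 9.57 in water. It was 16.2-fold lower (−4.01 ± 0.11, adjusted p = 1.82e-12), with no overlap. Of 5 measured lectins found by symbol or synonym, AT3G16530 not among them, 1 rose and none fell, with a median of 0.06. OSM34, an osmotin of the thaumatin family, fell by 1.72 ± 0.22. The proteinase inhibitor gene AT2G38870, picked after its value was seen, fell by 1.26 ± 0.14, and YLS5, known as a transcript of leaf senescence, fell by 1.62 ± 0.11.

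**Figure D4:**
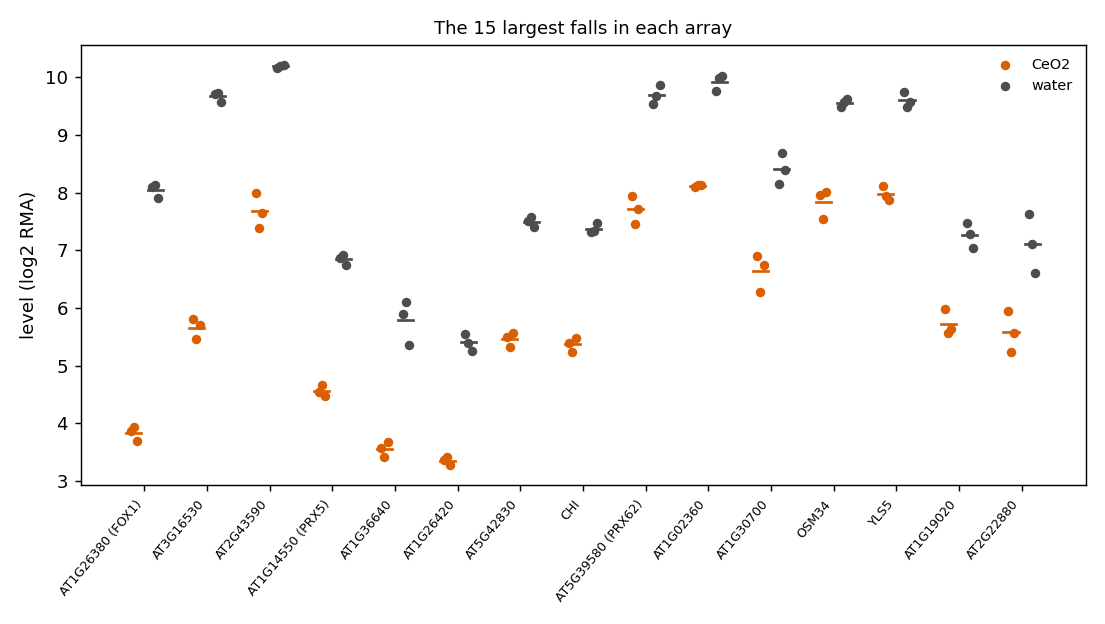
Level of the 15 genes with the largest falls in each array (log2 RMA, vertical axis), with CeO2 arrays in orange left of water arrays in grey and bars at the group means of 3 arrays. Genes were taken only where the groups did not overlap, so in all 15 the orange points lie below the grey points. The CeO2 points of AT1G26380 (FOX1), AT1G36640 and AT1G26420 lie below 4.

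Among regulators of immunity, 4 of 9 measured fell and none rose, with a median of −0.33. PUB23 and PUB24 are ubiquitin ligases that dampen the response to microbial molecules. PUB23 was at 6.43, 6.08 and 6.28 log2 in CeO2, against 7.26, 7.29 and 7.03 in water, a change of −0.93 ± 0.12. PUB24 fell by 0.78 ± 0.11 and had its CeO2 mean, 3.82, near the floor. PUB22, the related ligase, was at −0.33 (adjusted p = 0.21).

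The transcription factor WRKY53, an early regulator of defence and senescence, fell by 0.74 ± 0.10 (3.5 ± 0.11 in CeO2 and 4.24 ± 0.12 in water, SD, n = 3 each), and WRKY6 fell by 0.40 ± 0.08. The call of WRKY6 was lost when any 1 of CeO2 replicates 1 and 3 and water replicates 2 and 3 was left out. The receptor gene EFR, its downstream kinase BIK1, WRKY22 and SAG101 lay between −0.14 and 0.08, without passing.

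Receptor-like kinases with a malectin-like domain and leucine-rich repeats had 3 falls and 1 rise among 32 measured, a median of −0.01, and 23 CeO2 means below 4. AT1G51890 was at 3.92, 3.61 and 3.79 log2 in CeO2, against 5.01, 5.27 and 5.2 in water, a change of −1.39 ± 0.11 with no overlap. AT5G59680 fell by 0.92 ± 0.09, AT1G05700 fell by 0.54 ± 0.11, and AT4G20450 rose by 0.51 ± 0.12. Other kinase genes known by locus number, picked after their values were seen, moved in both directions. AT1G61360, AT5G25930 and AT1G74360 fell, with changes of −1.28, −1.14 and −0.83, and AT4G27290 and AT2G41970, a kinase that keeps the tip-growing wall intact, rose by 0.77 and 0.62.

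Of the precursors of secreted PIP peptides, which amplify immune signalling, AT4G28460, AT2G23270 and AT4G37290 were picked because they fell, so they give no count for the group. AT4G28460 was at 3.66, 3.82 and 3.74 log2 in CeO2, against 5.36, 5.04 and 4.56 in water, a change of −1.24 ± 0.15. AT2G23270 fell by 1.14 ± 0.12 and AT4G37290 fell by 0.75 ± 0.14. Groups did not overlap in any of the 3, and water replicate 1 was the highest array for each. The protease genes SBT3.5, a subtilase, and NANA, an aspartic protease, also picked after their values were seen, fell, with changes of −1.03 ± 0.11 and −1.02 ± 0.11.

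Genes of jasmonate synthesis and response, the hormone of wounding and chewing insects, had no call among 6 measured, with changes of −0.18 to 0.21. PDF1.2, a defensin of that pathway, was at −0.17. With 1.11% of all genes higher and 0.951% lower, no call is the usual outcome for so few genes. Whether the jasmonate list differed from the immune, indole, oxidase and chitinase lists was not tested.

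Low oxygen stabilises a group of ERF transcription factors in plants, which switch on a core set of transcripts for fermentation and for proteins of partly unknown function. Of 43 such genes listed, 22 were measured, 7 fell, none rose, and the median was −0.41 with 18 changes below 0 and 4 above. This list was among those written after values had been seen. AT2G17850 was at 6.37, 5.75 and 6.56 log2 in CeO2, against 7.38, 7.17 and 7.53 in water, a change of −1.13 ± 0.21 with no overlap. AT5G10040 was at 3.42, 3.71 and 3.72 in CeO2, against 4.81, 4.28 and 4.83 in water, a change of −1.02 ± 0.13.

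AT4G27450 was at 10.69, 10.25 and 10.67 log2 in CeO2, against 11.58, 11.31 and 11.5 in water, a change of −0.92 ± 0.13. AT4G33560 fell by 0.90 ± 0.17 and AT3G03270 (HRU1), a universal stress protein, fell by 0.76 ± 0.11. AT4G24110 and AT1G19530 fell, with changes of −0.60 and −0.57, and their calls were lost without single arrays. For AT4G24110 these were CeO2 replicates 2 and 3 and water replicate 1. For AT1G19530 they were CeO2 replicate 2 and each of the water replicates.

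Members that missed the threshold included AT5G66985 at −0.63 (adjusted p = 0.077), AT1G33055 at −0.55 (adjusted p = 0.149), AT3G27220 at −0.52 (adjusted p = 0.0583) and CML38 at −0.51 (adjusted p = 0.167). LDH, the lactate dehydrogenase of fermentation, was at −0.13 and HRA1, an attenuator of the response, at −0.28, both without a call. Means over the 22 genes were 7.25, 7.03 and 7.29 in CeO2, against 7.65, 7.54 and 7.61 in water. CeO2 replicate 2 was the lowest array. The groups did not overlap, but the list was written after values had been seen, so this separation is a description.

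**Figure D5:**
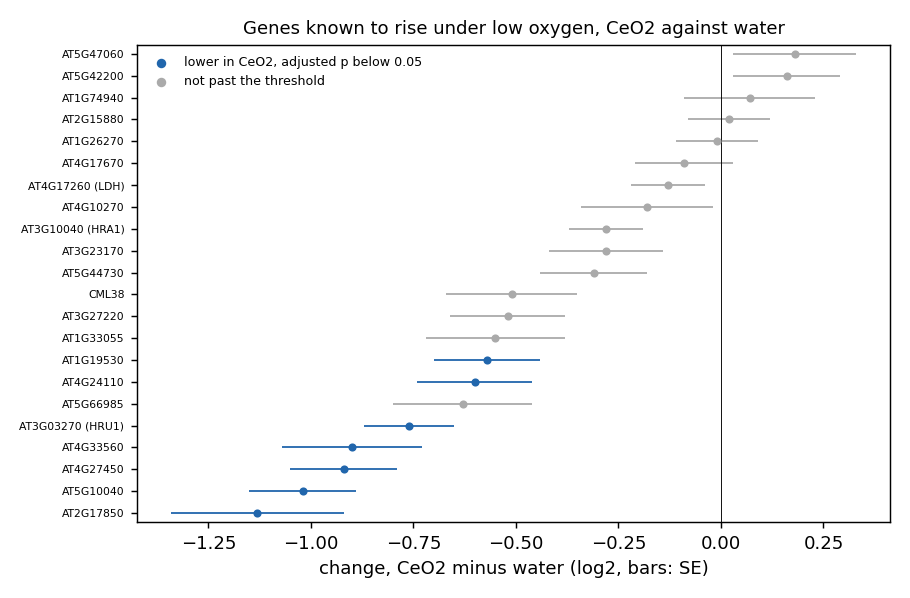
Change of each of the 22 measured genes known to rise under low oxygen, CeO2 minus water (log2, horizontal axis; bars are SE from limma), with genes down the page from the highest change to the lowest. Blue marks the 7 falls past the threshold; 18 of the 22 points lie below 0, and the highest is 0.18.

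Metal and nutrient genes were few on the measured list. ZIP9, a zinc transporter of the plasma membrane, was at 6.01, 5.87 and 6.15 log2 in CeO2, against 4.97, 5.14 and 5.18 in water, a rise of 0.91 ± 0.12 (adjusted p = 0.000197) with no overlap. MT1C, a copper-binding metallothionein, rose by 0.57 ± 0.14, with its call lost without any 1 array except CeO2 replicate 2. CCS, the copper chaperone of superoxide dismutase, was at −0.19, so 2 of 3 measured zinc and copper genes rose.

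Iron genes had 1 fall among 6 measured. AT3G13610 (F6'H1), which starts the synthesis of the coumarin scopoletin, was at 9.35, 8.65 and 9.14 log2 in CeO2, against 9.98, 10.09 and 10.01 in water, a change of −0.98 ± 0.14 with no overlap. AT3G12900 (S8H), the next enzyme towards iron-mobilising coumarins, was at −0.18, and the iron regulators PYE, BHLH101 and IMA1 lay between −0.10 and 0.23, all without a call.

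Ceria is studied as a material that can take up and release oxygen, which makes antioxidant genes a natural point of interest. Only 7 of 32 listed antioxidant enzyme genes were measured. None of the 7 was called, and their changes ran from −0.16 for SAPX, a stromal ascorbate peroxidase, to 0.13 for ATMDAR2, which recycles ascorbate. Over all genes 1.11% were higher and 0.951% lower. No call is thus the usual outcome for groups as small as those in this paragraph, and it does not show that they were unaffected. The glutathione reductases GR1 and GR were at −0.11 and −0.01. None of 11 glutathione S-transferases, detoxifying enzymes, passed the threshold, with changes of −0.33 to 0.26 and a median of 0.06. None of the 3 oxidative and mitochondrial stress markers passed either, with UPOX at 0.04, NDB2 at 0.17 and STZ at −0.37 (adjusted p = 0.703). MSRB5, which repairs oxidised methionine and was picked from outside these lists after its value was seen, rose by 0.34 ± 0.08; its call was lost without any 1 array except CeO2 replicate 2.

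The few measured genes of shoot processes also gave no calls. They were 6 of 40 listed for photosynthesis, 8 of 27 for chlorophyll and haem and 7 of 20 for flavonoids and anthocyanins. With 1.11% of all genes higher and 0.951% lower, no call is the usual outcome for so few, so it does not show that these processes were unaffected. The 6 measured nuclear photosynthesis genes averaged 12.29, 12.25 and 12.32 log2 in CeO2 and 12.31, 12.26 and 12.27 in water, so the groups overlapped. Their changes ran from −0.24 for PSAN, a photosystem subunit, to 0.21 for LHCB4.3, an antenna protein. Of 8 chlorophyll and haem synthesis genes, 7 had changes below 0 and the median was −0.22, with none past the threshold. The lowest was CHLI2 at −0.30 (adjusted p = 0.3), a magnesium chelatase subunit, and PORB was at 0.14. Changes of the 7 flavonoid and anthocyanin genes lay between −0.03 and 0.08, with DFR, which reduces dihydroflavonols, at −0.01.

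Of hormone groups, auxin had 0 calls among 9 measured, and the conjugating enzyme gene GH3.3 at −0.90 had the largest change. It was at 8.2, 7.83 and 8.2 log2 in CeO2, against 9.02, 8.9 and 9.01 in water, with no overlap but an adjusted p of 0.071. IAA31 and the kinase gene WAG2, both of auxin biology and picked after their values were seen, rose by 0.47 and 0.66. Of 4 genes of the abscisic acid and cold response, COR15A rose by 0.49 ± 0.11 and the others were between 0.01 and 0.35. Heat shock genes lay between −0.04 and 0.03 over 4 measured, and cell cycle genes between −0.03 and 0.21 over 4, none of them called. For groups this small, auxin included, no call is the usual outcome at background shares of 1.11% higher and 0.951% lower.

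Specialised metabolism of the root had 1 measured gene. AT5G47980, of the thalianol triterpene cluster, was at 6.03, 5.99 and 6.21 log2 in CeO2, against 4.73, 4.92 and 4.72 in water, a rise of 1.29 ± 0.17 (adjusted p = 0.000187) with no overlap. Cytochromes P450 found by symbol, oxygenases of such pathways, had 1 rise and 1 fall among 24 measured, CYP718 at 1.09 and CYP71B6. Of 45 sugar transferases of the UGT family, only UGT73D1 was called, with a change of −0.53.

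Many of the largest changes belong to genes that stand outside these lists. Among the 15 largest falls, AT1G36640 was at 3.58, 3.41 and 3.67 log2 in CeO2, against 5.9, 6.1 and 5.35 in water, a change of −2.23 ± 0.15. The acyltransferase-type gene AT5G42830 was at 5.49, 5.32 and 5.56 in CeO2, against 7.5, 7.58 and 7.41 in water, a change of −2.04 ± 0.09. Neither gene's groups overlapped. AT1G19020 and AT2G22880, a VQ-motif protein gene, fell, with changes of −1.54 ± 0.13 and −1.52 ± 0.20.

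Among the 15 largest rises, TET12, a tetraspanin of the membrane, was at 5.98, 5.72 and 6.26 log2 in CeO2, against 4.5, 4.59 and 4.64 in water, a rise of 1.41 ± 0.13. AT5G04120, of the phosphoglycerate mutase type, was at 8.47, 7.55 and 8.07 in CeO2, against 6.23, 6.49 and 6.59 in water, a rise of 1.60 ± 0.21. CeO2 replicate 2 was the lowest CeO2 array of both, but still above every water array. AT5G24313 and AT1G14960, of the MLP type, rose by 1.4 ± 0.15 and 1.31 ± 0.15.

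RALFL22, a secreted peptide of the rapid alkalinization family, rose by 0.85 ± 0.10 and was the 1 called gene among 11 measured of that family. Further rises were picked after their values were seen and stand for no group. PLIM2b, which bundles actin filaments, rose by 0.65 ± 0.09. The lipid transfer-type genes AT4G12360, AT4G12500 and AT4G22640 rose by 0.95, 0.89 and 0.75. AT4G12500 was at 8.19, 7.22 and 7.89 in CeO2, against 6.75, 6.89 and 7.0 in water, and its call was lost without CeO2 replicate 1 or 3 or water replicate 1 or 2. The call of AT4G22640 was lost without CeO2 replicate 3 or water replicate 1. SWEET16, a vacuolar sugar transporter, rose by 0.68 ± 0.14, and its call was lost without CeO2 replicate 1 or water replicate 1 or 2.

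Probe sets without a gene held some of the strongest changes, 132 higher and 131 lower. Probe set 267565_at averaged 3.0 log2 in CeO2 and 7.13 in water (−4.13, adjusted p = 8.79e-12), and 247949_at averaged 4.83 in CeO2 and 8.4 in water (−3.57, adjusted p = 1.90e-10). The largest such rises were those of 263376_at, at 8.56 in CeO2 and 6.35 in water (2.21, adjusted p = 2.28e-07), and 251226_at, at 11.55 in CeO2 and 9.79 in water (1.77, adjusted p = 9.59e-08). The annotation used here pairs none of them with a gene.

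Set against the titania experiment, most of the 30 largest changes differed from the TiO2 effect. A limma test of the difference (effect of ceria minus effect of titania) was passed by 8.06% of all probe sets. Of the 30 genes, 26 passed it, 12 of the 15 falls and 14 of the 15 rises, but these genes had been picked for a large CeO2 effect. XTH26 changed by 2.27 with ceria and by −0.40 with titania (difference adjusted p = 1.54e-07). AT3G16530 changed by −4.01 with ceria and by 0.02 with titania (difference adjusted p = 3.49e-10).

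The chitinase gene AT2G43590, OSM34, AT1G30700 and AT1G14960 were the 4 without such a difference. OSM34 changed by −1.72 with ceria and by −1.20 with titania. In TiO2 against KCl, where 10.6% of probe sets passed the threshold, 6 of the 15 falls and 3 of the 15 rises passed. KCl means of 4 of the 15 falls were below 4, which leaves them little room to fall with titania. Particle, control liquid and array set differ together between these experiments and cannot be told apart.

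Without any 1 of the 6 CeO2 and water arrays, none of the 30 largest changes lost its call. Of all 275 called genes, 113 lost it without some array, and those named in the text and not yet said to are as follows. AT3G28550, AT3G43270 and UGT73D1 lost it without CeO2 replicate 3, AT3G28550 and AT3G43270 also without water replicate 1, UGT73D1 also without water replicate 2, and PRX57 only without water replicate 1. CSLC12 lost it without CeO2 replicate 1 or 3 or water replicate 1. PRX21 and COR15A lost it without CeO2 replicate 1 or 3 or water replicate 1 or 2, and PRX16 and AT4G20860 without CeO2 replicate 2 or 3 or water replicate 1 or 2. AT4G11210 and AT4G20450 lost it without CeO2 replicate 1 or 3 or water replicate 2 or 3, and AT1G05700 without CeO2 replicate 2 or 3 or water replicate 2 or 3. PRX27 lost it without CeO2 replicate 2 or 3 and IAA31 without CeO2 replicate 1 or 2, and both lost it without any 1 of the water arrays.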

How the data were processed

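Transcript levels were measured on Affymetrix Arabidopsis arrays, and the authors deposited log2 values made with RMA, per the submitters' processing notes. Its version, the probe definitions and whether all 12 arrays were normalized together are not given in the sources used here. All 22746 probe sets were used, unfiltered. A linear model in limma (version 3.58.1, under R 4.3.3) gave each of the 4 groups its own mean (12 arrays, 8 residual and 7.63 prior degrees of freedom). Tests were two-sided and Benjamini-Hochberg adjusted across every probe set, and a call means adjusted p below 0.05. The median SE was 0.106, and 3 arrays per group limit the precision. Every adjusted p is from limma. The fit was tested on simulated data. A ± after a change is its SE. A gene is its brightest probe set paired with it alone, and 13436 probe sets matched RefSeq. The annotation paired 8730 probe sets with no gene, so a listed gene that was not measured may still be on the array.

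Lists and names of genes known by locus number only were written by locus, 31 lists with 753 loci (136 measured) and 9 whole-family or low-oxygen lists with 318 loci (224 measured). Members and lists were chosen with earlier results of these data known, and the 9 (peroxidase, oxidase, chitinase, extensin, CAP, dirigent, pectin methylesterase, malectin-type kinase, low-oxygen) after values were seen, so counts over them are descriptions. Another 56 families, the P450, UGT, lectin and RALF ones in the text among them, were found by words in gene symbols and synonyms. The naming rule took the 15 largest rises and falls among called genes whose CeO2 and water arrays did not overlap. It also took up to 4 called members per list and, where none was called, up to 2. Beyond it, the further called members of the peroxidase, oxidase, chitinase, extensin and low-oxygen lists, uncalled members given for contrast and genes said to be picked were added after values were seen. A search of promoter motifs was not run.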

Additional observations from a re-analysis of the deposited data

Results flagged for a closer look

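For 26 of the 30 largest changes, the CeO2 effect (CeO2 minus water) differed from the TiO2 effect (TiO2 minus KCl) by limma's test of the difference at adjusted p below 0.05. The 30 genes were chosen for a large CeO2 effect, which is part of that difference, so the count of 26 supports nothing beyond the values. KCl means of 4 of the falls (AT1G26380, AT1G14550, AT1G36640 and AT1G26420) were below 4, near the floor, where titania could hardly lower them. The values here are CeO2 effect minus TiO2 effect, in log2. Among genes lower in CeO2 the differences were −4.2 for AT1G26380, −4.03 for AT3G16530, −2.28 for AT1G14550 (PRX5), −2.23 for AT1G36640, −2.2 for AT2G43570 (CHI) and −2.02 for AT5G39580 (PRX62). Further differences were −1.99 for AT2G38860 (YLS5), −1.96 for AT1G26420, −1.88 for AT5G42830, −1.15 for AT2G22880, −1.07 for AT1G02360 and −0.93 for AT1G19020.

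Among genes higher in CeO2 they were 2.67 for AT4G28850 (XTH26), 2.17 for AT4G33720, 1.91 for AT5G04120, 1.6 for AT5G23030 (TET12), 1.5 for AT5G04960 and 1.5 for AT2G39040 (PRX24). Others were 1.37 for AT4G30320, 1.37 for AT1G62980 (EXPA18), 1.32 for AT5G19800, 1.18 for AT1G34510 (PRX8), 1.18 for AT4G11190, 1.13 for AT5G24313, 1.05 for AT4G33730 and 1.01 for AT5G06630. The particle, the control liquid and the array set cannot be told apart in these differences.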

How the results depend on the processing

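The 550 calls (286 higher, 264 lower) became 563 (297 higher) after a second quantile normalization, 549 (294 higher) with arrays centred on their medians, 492 (272 higher) without the dimmest 30% of probe sets, 606 (313 higher) with only the CeO2 and water arrays and 570 (292 higher) with an intensity trend and robust prior. With the replicate number as a block, also in only the CeO2 and water arrays, they became 671 (335 higher), beside the 606 without the block. Residuals of same-numbered CeO2 and water arrays correlated at 0.302, 0.00223 and 0.0569, so the numbers were not taken as pairs. CeO2 replicate 2 correlated best with water replicate 3. Leaving out 1 array gave 382 to 469 calls, 173 to 269 higher and 200 to 223 lower; the 173 came without CeO2 replicate 3, and without water replicate 1 there were 185. The counts of 7 root hair rises, 4 CAP rises and 2 extensin falls were the same under all 12 alternatives, and no called gene changed sign. Without the dimmest 30%, the 4 immune falls became 2 and the 6 oxidase falls became 4, with AT1G26390, AT1G26410 and AT1G26420 not tested. The immune falls were 3 to 4 and the 2 CAP falls 1 to 2 without 1 array. Without 1 array, the peroxidase rises were 7 to 10 and falls 4 to 6, the oxidase falls 5 to 7, the extensin rises 5 to 6 and the low-oxygen falls 5 to 7. Of 275 called genes, 60 to 95 lost the call per array left out, 24 with only the 6 compared arrays, 21 with the block, 12 after the second normalization, 10 with the trend and 6 with centring; 39 were not tested without the dimmest 30%. Values below about 4 log2 limit the size of falls.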
